A study of Mus musculus with 8 samples.

Results

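The interferon regulatory factors described here are Irf1, Irf2, Irf3, Irf4, Irf5, Irf7, Irf8 and Irf9, a family of transcription factor genes. They were measured by all 14 probe sets of the array whose annotation gives 1 of these 8 gene symbols, out of 45101 probe sets in all. For counts by gene, the brightest probe set on average stood for each of the 18193 named genes. The samples were leukaemic spleen cells of 4 mice, sorted by c-kit (CD117, the receptor for stem cell factor) into a c-kit-high fraction, CD117pos, and a c-kit-negative fraction, CD117neg. Each mouse gave 1 array of each fraction, so that 4 CD117pos arrays were set against 4 CD117neg arrays of the same animals. Both fractions came from leukaemias with MLL-AF10, a fusion of the histone methyltransferase gene MLL with AF10, which drives acute myeloid leukaemia. Per the labels, bone marrow stem and progenitor cells that expressed c-kit had been transduced by a retrovirus and immortalised, and were then given to irradiated syngeneic mice of a strain written as CD57BL/6. The dose of radiation was sub-lethal, so host blood cells may remain in the spleen, and neither the age of the mice nor whether the leukaemias arose from separate transductions was stated. The mice are called by the endings of their array titles, _948, _951, _952 and _953, and all values by mouse are given in that order.

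Interferon regulatory factors share an amino-terminal DNA-binding domain that recognises GAAA repeats, as found in interferon-stimulated response elements. Irf3, Irf5 and Irf7 are switched on by sensors of foreign nucleic acid and induce interferons and inflammatory cytokines. Irf9 is the DNA-binding part of the ISGF3 complex that answers type I interferon, Irf1 activates genes in the response to interferon-gamma, and Irf2 opposes Irf1 at shared sites. Irf4 and Irf8 act in blood cell lineages, where they bind composite sites together with the Ets factors PU.1 or SpiB. In myeloid progenitors of the mouse Irf8 directs cells toward monocytes and dendritic cells and away from neutrophils, and mice without it develop a disease like chronic myeloid leukaemia.

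The 8 genes lie on 6 chromosomes in the mouse build GRCm38.p6, with Irf3 and Irf7 both on chromosome 7 and Irf2 and Irf8 both on chromosome 8. The promoter windows of RefSeq for that build, which run from 250 bases before to 50 bases after an annotated start, held 11 windows for the 8 genes. Both strands were searched for 3 motifs: the response element core (GAAA, any 2 bases, GAAA), the gamma-activated site TTCNNNGAA, and the composite Ets-IRF site (GGAA, any 2 bases, GAAA). The following windows are shown because they are the 3 of the 11 that held a match, with the matched bases in capitals.
Irf1 (chr11:53769764-53770063, plus strand): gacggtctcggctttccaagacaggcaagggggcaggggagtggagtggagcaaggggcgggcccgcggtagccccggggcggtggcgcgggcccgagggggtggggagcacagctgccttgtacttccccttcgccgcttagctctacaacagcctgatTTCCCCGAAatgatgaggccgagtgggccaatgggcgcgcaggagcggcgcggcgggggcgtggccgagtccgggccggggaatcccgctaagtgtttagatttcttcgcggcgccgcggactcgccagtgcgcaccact
Irf2 (chr8:46739495-46739794, plus strand): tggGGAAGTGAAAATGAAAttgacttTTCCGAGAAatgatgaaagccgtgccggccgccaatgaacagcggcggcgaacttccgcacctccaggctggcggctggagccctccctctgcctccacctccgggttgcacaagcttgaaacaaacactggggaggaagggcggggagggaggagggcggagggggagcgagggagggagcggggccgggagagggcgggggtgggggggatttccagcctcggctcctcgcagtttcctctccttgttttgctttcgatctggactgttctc
Irf8 (chr8:120736108-120736407, plus strand): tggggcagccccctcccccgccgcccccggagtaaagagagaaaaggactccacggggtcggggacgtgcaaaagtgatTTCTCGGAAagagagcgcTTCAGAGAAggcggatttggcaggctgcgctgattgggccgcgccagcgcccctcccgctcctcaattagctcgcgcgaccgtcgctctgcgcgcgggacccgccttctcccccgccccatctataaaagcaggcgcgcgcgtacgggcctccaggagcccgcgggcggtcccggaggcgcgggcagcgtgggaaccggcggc
TTCNNNGAA was found in 1 window each of Irf1, Irf2 and Irf8, with the match of Irf1 beginning at position -90 from the annotated start and those of Irf8 at -171 and -153. The Irf2 window also held the composite site at -247 and the response element core at -241, which overlap. Of all 32851 promoter windows in the table, 8.30% held TTCNNNGAA, 3.44% held the response element core and 2.72% held the composite site. A match is a description of the letters and not a binding site.

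Kit, the gene of the sorted receptor, checks the labels. It measured 754, 741, 599 and 909 in the CD117pos arrays and 28.7, 39.2, 15.7 and 30.9 in the CD117neg arrays, so the fractions carry their labels. Intensities are on a linear scale, with array medians between 27.5 and 32.8, and values near or below these medians carry little information. The CD117pos array of mouse _951 stood apart, with a mean correlation across genes of 0.929 with the other CD117pos arrays, against 0.968 to 0.969 for the others. The leukaemia markers Hoxa9, Hoxa10, Hoxa7 and Meis1 differed between fractions in 0 of 4 cases (limma, adjusted p between 0.239 and 0.919). Of 10 measured myeloid markers, 6 fell (Ptprc, Itgam, Cd33, Csf3r, Fcgr3 and Lyz2, with log2 differences of -2.77 to -0.86) and 3 rose (Mpo, Elane and Ctsg, 1.06 to 2.47); they are named after their values were seen. Among listed markers of other cell types, 0 of 9 for plasmacytoid dendritic cells, 0 of 8 for B cells, 0 of 5 for NK cells, 0 of 6 for erythroid cells and 0 of 5 for megakaryocytes passed limma's test. One marker fell in each of 3 further lists, namely Itgax of 7 for conventional dendritic cells, Prdm1 of 5 for plasma cells and Cd28 of 8 for T cells, and these 3 were named after their values were seen. Summed B cell markers ranged from 176 to 317 in CD117pos and from 259.9 to 395 in CD117neg arrays, and summed conventional dendritic markers from 114 to 185 in CD117pos and from 539 to 893 in CD117neg arrays, mostly through Itgax (means of 43.8 in CD117pos and 605 in CD117neg). The array medians lay above the means of Cd3e, Cd3d, Pax5, Ncr1, Xcr1 and Siglech in both fractions. They were named after their values were seen. Means over all arrays were under 50 for 7 of 9 plasmacytoid dendritic, 6 of 7 conventional dendritic and 7 of 8 B cell markers. So were those of 6 of 8 T cell and 5 of 5 NK cell markers. Besides Itgax, the exceptions were Tcf4 (1244 in CD117pos and 1714 in CD117neg), Klk1 (647 and 432) and Cd79b (126 and 190). Cd28 (42.0 and 184) and Thy1 (76.9 and 24.4) were the others. In sorted bulk fractions, fewer cells of a type and less RNA per cell cannot be told apart.

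All 8 interferon regulatory factor genes had lower means in CD117pos than in CD117neg cells, and 6 of them fell: Irf1, Irf3, Irf5, Irf7, Irf8 and Irf9. Irf5, Irf8 and Irf7 fell by between 9.52 and 16.7 times, Irf1 and Irf9 by between 2.14 and 2.81 times, and Irf3 by 1.59 times. Irf2 and Irf4, both weakly expressed, did not pass the test, and 0 of the 8 rose (also 0 higher at an unadjusted p under 0.05). Calls used limma with the mouse as a block and a Benjamini-Hochberg adjusted p under 0.05 over the 18193 genes, of which 13.8% were called lower and 8.27% higher. Differences are CD117pos minus CD117neg on the scale of log2(intensity + 16), and their median was -1.29 over the 8 members and -0.01 over all genes. Fold sizes come from the same scale, so where a signal is weak they are smaller than ratios of the printed intensities. The 4 CD117pos arrays all lay below the 4 CD117neg arrays for 7 of the 8 genes, a pattern held by 17.3% of all genes, while 10.4% of all genes and 0 members had all CD117pos arrays above. Without mouse _951, 8 members fell, and 16.4% of all genes. Without mouse _948, _952 or _953 in turn, 5 members fell, and 6.63%, 7.6% and 6.49% of all genes.

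**Figure D1:**
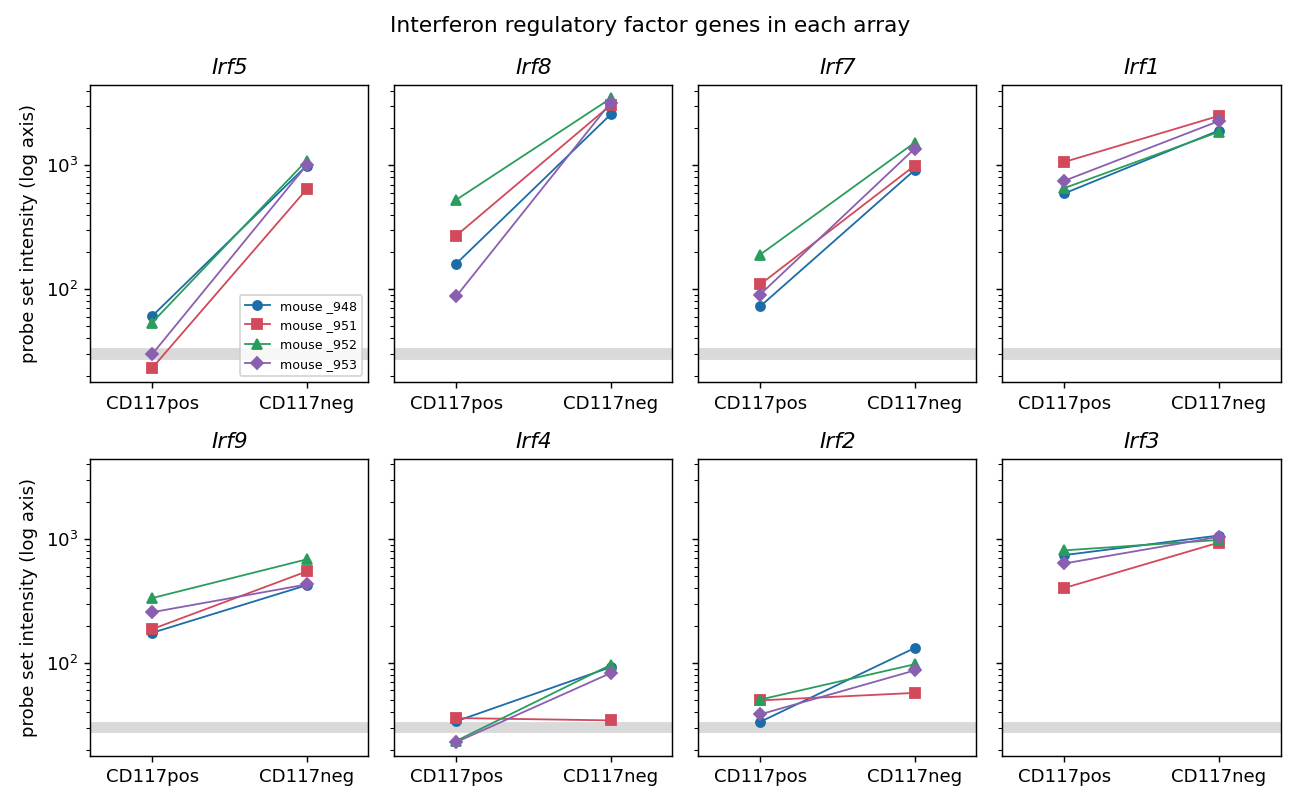
Intensity of the representative probe set of each gene (log axis) in the CD117pos and CD117neg array of each mouse, with lines joining the arrays of 1 animal and a grey band at the range of array medians (27.5 to 32.8). For Irf5, Irf8 and Irf7 every line is steep and the fractions are far apart, while for Irf4 the line of mouse _951 is flat.

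The factors downstream of nucleic acid sensors, Irf3, Irf5 and Irf7, all fell. Irf5, which acts with MyD88 to induce inflammatory cytokines, measured 60.6, 23.1, 53.8 and 29.8 in CD117pos arrays, against 995, 641, 1094 and 1003 in CD117neg arrays. Its CD117pos values were low in every mouse, and the fractions did not overlap. The log2 difference was -4.07 ± 0.15 (SE, 4 mice; limma, adjusted p = 0.000228), a 16.7-fold fall. Irf7, the factor that amplifies type I interferon production, measured 72.6, 109, 190.0 and 90.6 in CD117pos arrays, against 916, 995, 1525 and 1363 in CD117neg arrays. Mouse _952 was the highest in both fractions, and no CD117pos array came near a CD117neg array. Irf7 fell 9.52-fold, with a log2 difference of -3.25 ± 0.17 (limma, adjusted p = 0.00050). Irf3, which is made in most cells and starts interferon-beta induction, measured 742, 402, 811 and 635 in CD117pos arrays, against 1068, 936, 983 and 1043 in CD117neg arrays. Mouse _951 had the lowest value of either fraction, and CD117pos lay below CD117neg in full. The log2 difference of Irf3 was -0.67 ± 0.17 (limma, adjusted p = 0.0451), near the threshold. It missed the threshold after quantile normalisation (-0.46, adjusted p = 0.106), after centring on array medians (-0.58, adjusted p = 0.0732) and without mouse _948, _952 or _953 (adjusted p between 0.0733 and 0.155).

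Among the factors of the interferon response, Irf1 and Irf9 fell and Irf2 did not pass. Irf1 measured 592, 1063, 654 and 749 in CD117pos arrays, against 1908, 2505, 1861 and 2275 in CD117neg arrays. Mouse _951 had the highest Irf1 in both fractions, and the fractions were well separated. The log2 difference was -1.49 ± 0.12 (limma, adjusted p = 0.00188), and Irf1 kept a CD117pos mean of 765 ± 209 (SD, n = 4), far above the array medians. Irf9 measured 175, 187, 334 and 257 in CD117pos arrays, against 424, 548, 686 and 430.3 in CD117neg arrays. Both fractions were highest in mouse _952, whose CD117pos value lay closest to the CD117neg range. The log2 difference of Irf9 was -1.10 ± 0.16 (limma, adjusted p = 0.00739), a 2.14-fold fall. Irf2 measured 33.5, 49.9, 50.6 and 38.4 in CD117pos arrays, against 132, 57.3, 97.6 and 87.0 in CD117neg arrays. All these values are low, and mouse _951 had nearly the same value in both fractions. The difference was -0.86 ± 0.24 (limma, adjusted p = 0.0535), and without mouse _951 it was -1.09 (adjusted p = 0.0120). With a pseudocount of 64 it was -0.54. The only Irf2 probe set is of the kind that can share sequence with other transcripts.

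Of the lineage factors, Irf8 fell steeply and Irf4 was low throughout. Irf8 measured 160.4, 270.2, 526 and 87.3 in CD117pos arrays, against 2574, 3067, 3467 and 3205 in CD117neg arrays. The CD117neg arrays were close together, while the CD117pos arrays were spread widely, with mouse _952 highest and mouse _953 lowest. The log2 difference was -3.74 ± 0.36 (limma, adjusted p = 0.00263), a 13.3-fold fall, and its SE was the largest of the family. Within mice, the Irf8 difference was -3.88, -3.43, -2.68 and -4.96. Irf4, a factor of B cells, plasma cells and dendritic cells, measured 33.8, 35.9, 23.5 and 22.9 in CD117pos arrays, against 92.4, 34.4, 96.4 and 82.8 in CD117neg arrays. In mouse _951 both fractions were near the array medians, and that CD117neg array lay within the CD117pos range, so the fractions overlapped. The difference was -0.98 ± 0.28 (limma, adjusted p = 0.0557) with all mice and -1.33 (adjusted p = 0.00229) without mouse _951. It was -0.57 with a pseudocount of 64.

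**Figure D2:**
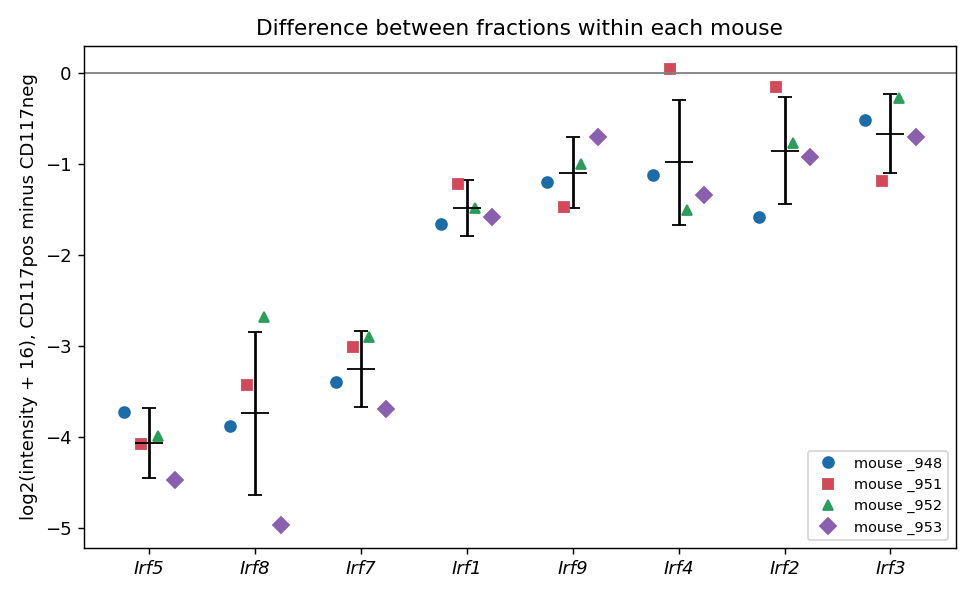
Log2 difference, CD117pos minus CD117neg, within each mouse (symbols), with the mean and its 95% interval from the fit (bars), genes in order of the mean. Irf5, Irf8 and Irf7 lie between -4.07 and -3.25 on average and the other 5 between -1.49 and -0.67, and the only value above 0 is that of Irf4 in mouse _951.

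Ordered by difference, the family ran Irf5, Irf8, Irf7, Irf1, Irf9, Irf4, Irf2 and Irf3. The order depended on the settings: Irf8 (-3.45) came before Irf5 (-3.23) with a pseudocount of 64, and both Irf8 (-3.93) and Irf7 (-3.25) came before Irf5 (-2.18) when probe sets were averaged. Irf9, Irf4, Irf2 and Irf3 also changed places among themselves, while Irf5, Irf7 and Irf8 held the first 3 places in all 15 alternatives. Some of these could not change the order. The filter on weak genes, the test of every probe set, the fit without the block and the intensity trend left each member's difference as it was. Differences of neighbours in this order were compared within mice by an exact two-sided sign-flip permutation test, which with 4 mice cannot give a p below 0.125. The difference of Irf7 was lower than that of Irf1 in 4 of 4 mice, by a log2 gap of -2.11 to -1.42, at that smallest p (0.583 after adjustment over the 7 pairs). For the other 6 pairs of neighbours the order was not the same in all mice, with exact p between 0.25 and 0.875. The differences of Irf5 and Irf8, for example, were set apart by -0.33 on average but by between -1.31 and 0.49 within mice. Among all 18193 genes, the differences of Irf5, Irf8 and Irf7 stood at the 0.492, 0.673 and 0.987 percentiles counted from the largest fall, and that of Irf3 at the 12.7 percentile.

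Levels also varied between animals, without passing a test. The CD117pos array of mouse _952 held the highest Irf7, Irf8 and Irf9 of that fraction, and its CD117neg array was the highest of its own fraction for the same genes. The mouse terms of the fit passed limma's moderated F-test for 0 of the 8 members (adjusted p between 0.617 and 0.894) and 0% of all genes, while 3 members and 1386 genes had an unadjusted p under 0.05. Over the 8 arrays, Irf7 and Irf8 had a Pearson correlation of 0.979, Irf5 and Irf7 of 0.968, and Irf1 and Irf3 of 0.557. These correlations are a description, since all arrays share the fraction difference.

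Genes with several probe sets did not always give the same size of change. Tested over all 45037 probe sets other than controls, of which 10.9% were called lower and 5.60% higher, 7 of the 14 member probe sets fell and 0 rose (limma; 0 higher means among the 14). The second Irf8 probe set, 1416714_at, measured 117, 146, 425 and 58.9 in CD117pos arrays, against 1947, 3376, 3470.2 and 2857 in CD117neg arrays. Its difference was -4.13 ± 0.36, against -3.74 ± 0.36 for the first. Within mice it was -3.88, -4.39, -2.98 and -5.26. The second Irf5 probe set, 1449678_at, was near the array medians everywhere, with means of 24.7 ± 6.09 in CD117pos and 33.7 ± 4.40 in CD117neg arrays (SD, n = 4), and its difference was -0.30 ± 0.16 (limma, adjusted p = 0.282). Averaged over both probe sets, the Irf5 difference was -2.18 in place of -4.07, still past the threshold. For Irf3, 1438721_a_at measured 6.83, 5.27, 6.78 and 6.75 in CD117pos arrays, against 82.5, 44.3, 72.9 and 76.6 in CD117neg arrays. This weakest Irf3 probe set fell by 1.90 ± 0.14 on the log2 scale (limma, adjusted p = 0.00162), while the other 3 differed by -0.67 to -0.50 with adjusted p between 0.0523 and 0.148. The second Irf4 probe set, 1421174_at, was also weak, with means of 18.2 and 28.4 in CD117pos and CD117neg arrays and a difference of -0.38 ± 0.19.

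**Figure D3:**
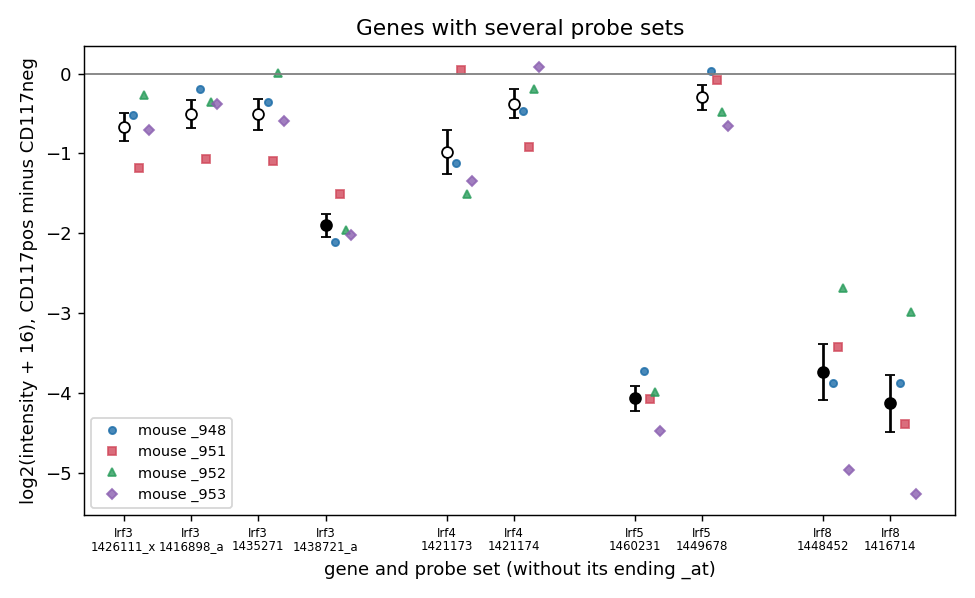
Log2 difference, CD117pos minus CD117neg, of each probe set of the 4 genes with several: mean and SE of the fit (circles, filled where the adjusted p over all probe sets was under 0.05) and the value in each mouse (coloured symbols). The Irf8 probe sets lie together at -3.74 and -4.13, the Irf5 probe sets lie apart at -4.07 and -0.30, and 1438721_a_at stands below the other Irf3 probe sets.

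For each member, the genes with the most similar profile over the 8 arrays were taken by Pearson correlation among 9960 genes with a mean intensity of at least 50. They were Klra2, Tlr13 and S100a10 for Irf5 (0.997 to 0.998), Calhm2, Degs1 and Zfand5 for Irf8 (0.993 to 0.994) and Ctsc, Mylpf and Nek7 for Irf7 (0.994 to 0.996). For Irf1 they were Mfsd6, Vps13d and Rdh12 (0.994 to 0.997), and for Irf3 Ap1s2, Ccdc69 and F13a1 (0.991 to 0.992). Irf9 was most like Atp5c1, H13 and Usp18 (0.975 to 0.989), Irf4 most like Dpep1, Mertk and Sult1a1 (0.978 to 0.990), and Irf2 most like Plxnb3, Vcan and Chm (0.962 to 0.972). Such values are common where a gene differs between fractions: 647 genes reached 0.95 with Irf5 and 201 with Irf8, against 4 with Irf2.

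The other genes of the pathway were read from 7 lists, against 13.8% of all genes lower and 8.27% higher, with a median difference of -0.01. Of 9 measured interferon genes, 0 fell and 0 rose (limma), every mean was under 50 and the median was 0.05. The largest difference was that of Ifnb1, the interferon-beta gene, whose means were 33.8 ± 30.4 in CD117pos and 15.5 ± 1.94 in CD117neg arrays (adjusted p = 0.327). Its highest value was 78.7 in the CD117pos array of mouse _951, and without that mouse the difference was 0.10 in place of 0.50.

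The list of receptor and Jak-Stat genes holds both carriers of the interferon signal and its inhibitors. Of 15 measured, 11 fell and 0 rose, with a median of -1.24. The falls included the receptor and kinase genes Ifnar1, Ifnar2, Ifngr2, Jak1, Jak2 and Tyk2 and also Socs3, Usp18, Ptpn1 and Ptpn6, which restrain the signal. Without mouse _948 and without mouse _952, 7 of them fell, with 6.63% and 7.6% of all genes lower. Usp18, an interferon-induced protease that restrains the type I receptor, averaged 66.8 ± 43.1 in CD117pos and 323 ± 146 in CD117neg arrays (log2 difference -2.06 ± 0.15). Jak2, a kinase of the interferon-gamma receptor, averaged 459.6 ± 193 in CD117pos and 1427 ± 128 in CD117neg arrays (-1.67 ± 0.20). Ifngr2, a chain of that receptor, averaged 35.8 ± 8.08 in CD117pos and 133 ± 36.8 in CD117neg arrays (-1.49 ± 0.20). Averaged over its probe sets, Ifngr2 differed by -0.74. Socs3, a feedback inhibitor of Jak kinases, averaged 19.7 ± 27.3 in CD117pos and 212 ± 103 in CD117neg arrays. Its difference of -2.76 ± 0.36 became -0.18 (limma, adjusted p = 0.443) without probe sets of shared sequence.

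Of 23 measured sensors, adaptors and kinases that act upstream of Irf3, Irf5 and Irf7, 8 fell and 0 rose, with a median of -0.46. Tlr7, an endosomal receptor for RNA, averaged 39.0 ± 24.0 in CD117pos and 379 ± 171 in CD117neg arrays (-2.80 ± 0.23), or -2.03 averaged over its probe sets. Zbp1, a sensor of nucleic acid, averaged 12.1 ± 10.5 in CD117pos and 161 ± 53.3 in CD117neg arrays (-2.67 ± 0.19), or -1.74 averaged over its probe sets. Myd88, the adaptor upstream of Irf5 and Irf7, averaged 580.1 ± 249 in CD117pos and 1833 ± 291 in CD117neg arrays (-1.77 ± 0.39). Unc93b1, which carries endosomal Toll-like receptors, averaged 373 ± 78.6 in CD117pos and 738 ± 98.3 in CD117neg arrays (-0.97 ± 0.16). The count was 4 with a pseudocount of 1 (10.3% of all genes fell), 12 with a pseudocount of 64 (14.9%), and 5 after quantile normalisation (10.7%) or centring (11.5%). It was 2, 2 and 3 without mice _948, _952 and _953, with 6.63%, 7.6% and 6.49% of all genes lower, so that the list was near the share of all genes without mouse _948 or _952. In these 3 cases the calls of Myd88 and Unc93b1 ended (limma, adjusted p between 0.0595 and 0.0949).

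Among 19 measured partners and regulators of the proteins, 6 fell and 1 rose, with a median of -0.30. The 1 that rose is no more than the share of all genes called higher (8.27%). Spi1, which encodes PU.1, the Ets partner of Irf4 and Irf8, averaged 385 ± 172 in CD117pos and 1119.8 ± 224 in CD117neg arrays (-1.63 ± 0.23). The zinc finger factor gene Ikzf1, which encodes Ikaros, averaged 2304 ± 572 in CD117pos and 4564 ± 246 in CD117neg arrays (-1.02 ± 0.17). Jun differed by -2.51 ± 0.25 and Nfatc1 by -2.20 ± 0.11, or -0.77 averaged over the Nfatc1 probe sets. Swap70, a binding protein of Irf4, was the gene that rose, by 0.51 ± 0.13 (limma, adjusted p = 0.0456), and is named after its value was seen. No gene of the list rose without any 1 of the mice, with a pseudocount of 1, averaged over probe sets or with every probe set tested. Falls numbered 3 without mouse _948, without mouse _953 and with the mean of probe sets, where 6.63%, 6.49% and 13% of all genes fell. With the mean of probe sets the list was thus near the share of all genes. The Ikzf1 call ended without mouse _948 (adjusted p = 0.0659), without mouse _953 (0.0537) and with the mean of probe sets (0.0512).

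Most of the listed targets of ISGF3 fell, as did Irf9, and a link between them was not tested. Of 35 measured, 22 fell and 1 rose, with a median of -1.03, and the median within each mouse lay between -1.21 and -1.12. The 1 that rose is no more than the share of all genes called higher (8.27%). Ifi27l2a averaged 34.5 ± 23.8 in CD117pos and 2077 ± 638 in CD117neg arrays (-5.46 ± 0.16). Ifitm3, which blocks entry of enveloped viruses, measured 57.7, 1165, 163 and 28.7 in CD117pos arrays, against 3234, 3362, 4874 and 3383 in CD117neg arrays. Its CD117pos array of mouse _951 was far above the other 3, the difference was -4.50 ± 0.76, and the call ended without mouse _948, _952 or _953 (limma, adjusted p between 0.0624 and 0.0691). Ifitm1 differed by -3.50 ± 0.37 and the DNA sensor gene Ifi204 by -3.37 ± 0.37. Ifit2, an RNA-binding antiviral protein gene, was the target that rose, with means of 427 ± 119 in CD117pos and 269 ± 95.3 in CD117neg arrays (0.66 ± 0.15). It is named after its value was seen, and no gene of the list rose with a pseudocount of 1, without the block (with or without the CD117pos array of mouse _951) or without mouse _948, _952 or _953.

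Of 28 measured targets of Irf1 and of interferon-gamma, 10 fell, 2 rose and 16 did not pass, with a median of -0.34. The 2 that rose are no more than the share of all genes called higher. Cd274, the PD-L1 gene, averaged 26.7 ± 5.50 in CD117pos and 129 ± 44.2 in CD117neg arrays (-1.71 ± 0.23), and the guanylate-binding protein genes Gbp6 and Gbp2 differed by -1.70 ± 0.19 and -1.58 ± 0.18. Nlrc5, a transactivator of MHC class I genes, differed by -1.55 ± 0.35, a call that ended without mouse _948, _952 or _953, without the block and with a pseudocount of 1 (limma, adjusted p between 0.0544 and 0.134). Gbp3 and Il15ra rose, with means of 1528 ± 506 and 252 ± 76.1 in CD117pos arrays, against 770.0 ± 257 and 118 ± 11.7 in CD117neg arrays, and are named after their values were seen. Without mice _948, _952 and _953, 5, 5 and 6 of this list fell, with 6.63%, 7.6% and 6.49% of all genes lower. When the block and 1 array, CD117pos of mouse _951, were left out, 15 of the list fell, and 16.3% of all genes. Without mouse _952 and without mouse _953, 1 of the list rose, with 3.21% and 2.29% of all genes higher.

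The lowest median of the 7 lists was that of genes linked to Irf8, mostly genes of monocytes and dendritic cells. The list also holds Pml, Nf1 and Fas, which are not markers of these cells. Nf1 (-0.86) and Fas (-1.91) are among its falls, and Pml (0.39) did not pass. Of 19 measured, 13 fell and 0 rose, with a median of -2.45. Klf4, a transcription factor of monocytes that acts downstream of Irf8 in mice, averaged 19.9 ± 12.4 in CD117pos and 2265 ± 934 in CD117neg arrays (-5.92 ± 0.24). The cathepsin gene Ctss averaged 282 ± 213 in CD117pos and 7532 ± 709.7 in CD117neg arrays, and Cx3cr1 and Cd74 differed by -4.16 ± 0.38 and -4.07 ± 0.25. Averaged over their probe sets, Klf4 differed by -4.91 and Cx3cr1 by -2.34.

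**Figure D4:**
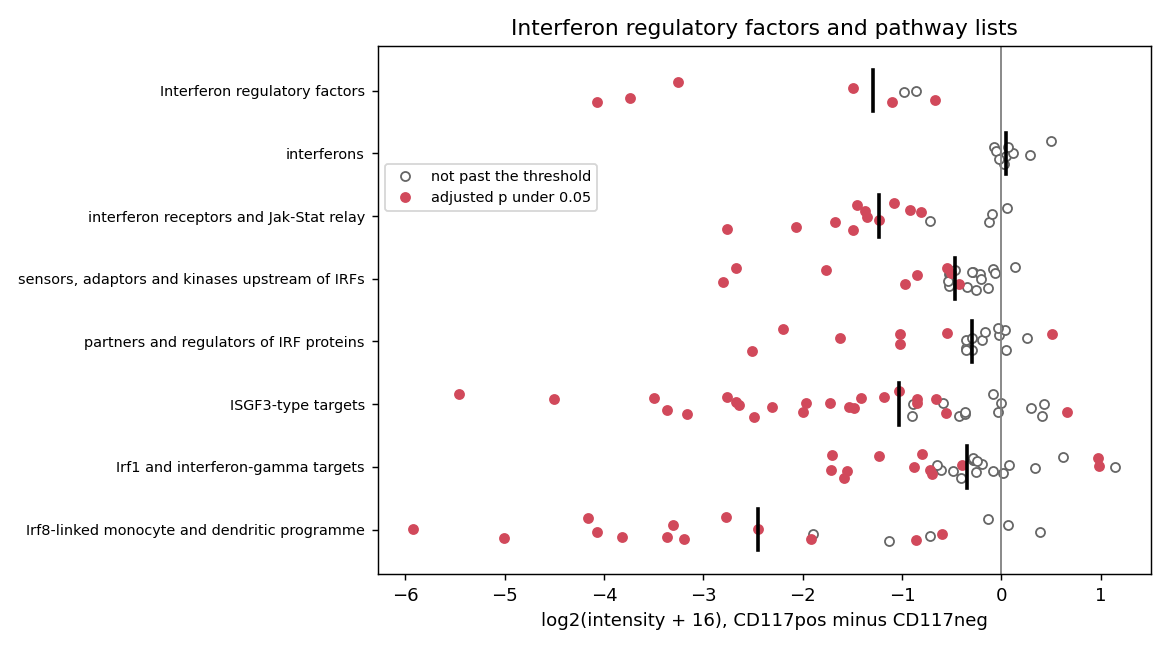
Log2 difference, CD117pos minus CD117neg, of every measured gene of the family and of the 7 lists (points, filled where the adjusted p over all genes was under 0.05), with the median of each list as a black bar. Interferon genes sit around 0 (median 0.05), and the family's median of -1.29 lies beside those of the receptor list (-1.24) and the ISGF3 list (-1.03).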

How the data were processed

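Per the labels, biotin-labelled RNA from 2 cycles of amplification was measured on 1-colour Affymetrix arrays. The authors deposited a linear intensity for each probe set, and how it was summarised and scaled was not stated. Each array held 841 to 898 values of exactly 1. The number of arrays sets the precision. Gene names came from the platform annotation (34958 with 1 symbol, 932 with several, 9160 with none), and 64 controls were left out. Values were transformed as log2(intensity + 16), which understates changes of weak genes, and fitted with limma 3.58.1 in R 4.3.3 with the mouse as a block; figures used matplotlib 3.10.9. Pairing comes from the design text, by which 1 mouse gave both fractions, and deviations from fraction means correlated at 0.120 to 0.271 within a mouse and at most 0.109 between mice. Named genes are the 8 members, up to 4 genes per list with the largest called difference (or the largest difference where none was called), and the 3 most correlated genes per member. Members and lists were chosen with earlier results of these data known. The fit was tested on simulated data. The alternatives tried were pseudocounts, scaling, a filter on weak genes, probe set choice, the block, an intensity trend and leaving out mice.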

Additional observations from a re-analysis of the deposited data

Results flagged for a closer look

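Each of the 78 groups of 4 arrays behind a member probe set or a named gene was searched for an array set apart from its group by Dixon's test, which by chance finds about 5% of groups. It found 16, of which 7 were the CD117pos and 4 the CD117neg array of mouse _951. Results with each mouse left out, or only the CD117pos array of mouse _951, are given with the dependence on the processing. Among members, the CD117neg array of mouse _951 held 34.4 for Irf4 (1421173_at), against 82.8 to 96.4 in the other CD117neg arrays, and 109 for the Irf3 probe set 1435271_at, against 87.8 to 90.4. The Irf3 probe set 1438721_a_at was 5.27 in the CD117pos array of mouse _951, against 6.75 to 6.83, and the Irf4 probe set 1421174_at was 15.9 in the CD117neg array of mouse _953, against 31.4 to 34.9.

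In the CD117pos array of mouse _951, Socs3 was 60.6 (4.64 to 7.09 in the other CD117pos arrays), Ifitm1 184 (12.2 to 21.0), Gbp2 79.4 (21.5 to 22.6) and Nlrc5 186 (9.09 to 16.7), all higher than the rest. Myd88 at 210.5 (675 to 757) and Ikzf1 at 1456 (2516 to 2704) were lower there. In the CD117neg array of that mouse, Tlr7 was 130.2 (412 to 511 in the other CD117neg arrays) and Cd74 322 (992 to 1110). In the CD117pos array of mouse _952, Jak2 was 748 (351 to 386) and Gbp6 128 (29.9 to 37.5). Ifitm3 was 4874 in the CD117neg array of mouse _952 (3234 to 3383), and Ifngr2 was 77.6 in that of mouse _948 (149 to 155).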

How the results depend on the processing

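The differences of Irf5, Irf8, Irf7, Irf1 and Irf9 kept their direction and stayed past the threshold in all 15 alternatives run. All 8 members kept their direction in all of them. The filter on weak genes adds nothing for Irf5, whose CD117pos mean of 41.8 is under 50 and which met it through CD117neg. Irf7, Irf1 and Irf9 have only 1 probe set each, so the choice of probe set could not change their differences. Irf3 missed the threshold, at adjusted p = 0.0872 with a pseudocount of 1 (difference -0.68), 0.106 after quantile normalisation (-0.46), 0.0732 after centring (-0.58), 0.102 without probe sets of shared sequence (-0.50) and 0.0523 with every probe set tested (-0.67). Irf2 and Irf4 also passed among genes with a mean of at least 50 (-0.86 and -0.98), which supports nothing, since their CD117pos means are under 50 and they met the filter through CD117neg. They passed averaged over probe sets (-0.86 and -0.68), without the replicate block (-0.86, adjusted p = 0.0213, and -0.98, adjusted p = 0.0267) and when the block and 1 array, CD117pos of mouse _951, were left out (-0.91 and -1.06). With its only probe set, Irf2 kept the same values under averaging. Its adjusted p (limma, 0.0459) moved only through the other genes, so that pass adds nothing. Leaving out a mouse gave differences of -0.80 to -0.50 for Irf3, -1.09 to -0.61 for Irf2 and -1.33 to -0.81 for Irf4. The count of members that fell was thus 5 to 8, and 0 rose throughout. Without the block 8 members fell, with 14% of all genes lower, and the call of no member was lost. Of all genes, 1504 were called higher and 2511 lower, against 992 higher with a pseudocount of 1 and 2420 higher after quantile normalisation; leaving out a mouse gave 416 to 2106 higher and 1181 to 2983 lower. Lower genes made up 62.5% of calls as deposited, 44.6% after quantile normalisation and 51.8% after centring. The causes were not tested. The size of a difference depended on the pseudocount for weak signals: with 64, Irf2 and Irf4 were at -0.54 and -0.57, and Zbp1, Jun, Socs3, Ifi204, Ifngr2, Cd274, Gbp2 and Nlrc5 were between -1.97 and -0.87.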
